A study of Mus musculus with 4 samples.

Results

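The 32 genes described here encode the piRNA pathway of the male germ line, the germ granule components that house it, and the DNA methylation enzymes that act with it on retrotransposons. They were chosen by gene symbol, and all 32 were found among the 54920 rows of the count files. They comprised 3 PIWI genes, 9 Tudor domain genes, 9 genes of piRNA processing, 3 granule or bridge genes, the transcription factor *Mybl1* and 7 genes of DNA methylation and nuclear silencing. Expression was measured by bulk RNA-seq of ID4-EGFP+ spermatogonia, which are enriched for spermatogonial stem cells (SSCs), sorted from testes at postnatal day 8 (P8). There were 2 control libraries (*Cnot3*flox/flox; *Id4-eGfp*, labelled wild-type) and 2 *Cnot3*-cKO libraries (*Cnot3*flox/flox; *Ddx4*-creER; *Id4-eGfp*). Both groups carried the floxed *Cnot3* alleles and the EGFP reporter, and both had received 4-hydroxytamoxifen (4-OHT), which activates the CreER protein, on days 1 to 3. The groups therefore also differed in the presence of CreER, which was driven by the promoter of *Ddx4*, itself one of the 32 genes. The labels do not say how many mice went into a library or whether the 2 libraries of a group came from separate mice. The study calls its RNA-seq replicates biological without further detail. The p-values therefore measure the spread between these libraries, 2 a group, only. In the test used, the spread of each gene was moderated by that of the other genes.

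piRNAs are small RNAs that guide PIWI proteins to the transcripts of retrotransposons. Long precursor transcripts are cut on the mitochondrial surface and in germ granules, and their fragments are loaded onto PIWI proteins, trimmed and methylated at their end. In fetal prospermatogonia the nuclear branch of the pathway directs DNA methylation to retrotransposon promoters. After birth, slicing by the cytoplasmic branch continues, and a separate class of piRNAs appears at the pachytene stage of meiosis. CNOT3 is a subunit of CCR4-NOT, the complex that shortens poly(A) tails and so starts the decay of mRNAs. The comparison asks how loss of *Cnot3* changed the transcripts of these genes in spermatogonia.

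Levels are given as CPM (counts scaled to a library of fixed size) on scaled library sizes, in the order control 1, control 2, *Cnot3*-cKO 1, *Cnot3*-cKO 2, and levels of different genes are compared as RPKM (the same, per kilobase of exon). Changes are log2 fold changes, *Cnot3*-cKO over control, with their standard error (SE), and negative values are lower in *Cnot3*-cKO. The SE was derived as the size of the change over the square root of the test's F statistic, and the 95% intervals were built on it. A gene is said to have risen or fallen at a Benjamini-Hochberg adjusted p under 0.01 in edgeR's quasi-likelihood F test over all 23952 genes tested. Depth was 40957899 and 43378493 reads for the controls, and 22192964 and 28019626 for *Cnot3*-cKO. *Cnot3* itself was measured at 54.4 ± 5.94 CPM in the controls and 19.6 ± 0.521 CPM in *Cnot3*-cKO (SD, n = 2 each), a log2 change of -1.48 (SE 0.13, adjusted p = 1.48e-05). Markers of somatic testis cells moved with the genotype. The summed level of 16 Sertoli cell markers was 454 and 463 CPM in the controls and 1361 CPM in each *Cnot3*-cKO library, 14 of them rose, and *Gjb2* fell by 1.08 (adjusted p = 0.00772). Summed Leydig cell markers went from 368 and 322 to 831 and 896 CPM (5 of 5 tested rose, with *Insl3* at 0 in all 4 libraries), and macrophage markers from 286 and 181 to 621 and 508 CPM (8 of 9 rose). The defining Sertoli genes *Sox9* and *Amh* were present in every library, at up to 18.8 and 20.2 CPM. Among germ cell lists, 17 reference genes summed to 6025 and 6495 against 4867 and 5210 CPM (1 rose, 6 fell), and 7 of 11 markers of progenitor and differentiating spermatogonia fell. Of 12 SSC markers 5 rose and 1 fell, of 13 spermatocyte markers 2 rose and 1 fell, of 6 peritubular markers 1 rose, and of 5 endothelial markers 2 rose. The part of this shift in the values of the 32 genes was not tested. In bulk libraries, fewer cells of a type and less RNA per cell cannot be told apart.

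All 32 genes passed the expression filter, and few of them passed the test. *Tdrd3* and *Mybl1* rose. *Pld6*, *Dnmt3b*, *Mov10l1*, *Piwil2* and *Tdrkh* fell, and 25 genes were not called. The 2 that rose were 6.25% of the 32, against a background of 6.21% of all tested genes, so the count of higher genes was at the background. The 5 that fell were 15.6%, against 4.7% of all tested genes. Among the 17235 tested genes within the range of control level of the 32, 7.93% rose and 6.41% fell. The study's thresholds, which it used with DESeq2, add a fold change above 2. In the edgeR fit, *Tdrd3* and *Mybl1* were called higher at these thresholds (background 4.03%) and no gene was called lower (background 0.735%). Their folds of 2.06 and 2.04 lay just past the limit, and neither was called at these thresholds with DESeq2's fold change prior or without *Cnot3*-cKO library 2. With an unadjusted p under 0.05 and the same fold, 1 gene was lower (*Dppa3*), against 452 of all 23952 tested genes. DESeq2 called 0 lower at the study's thresholds, against 186 of all tested genes. In 10 of the genes each *Cnot3*-cKO value exceeded each control value (30.5% of all tested genes did so), and in 12 each was below (28.6% of all tested genes). For the other 10 the groups overlapped. The median log2 change of the 32 was -0.07, against 0.01 over all tested genes. Together their levels summed to 6905 and 7137 CPM in the controls and 6585 and 6432 CPM in *Cnot3*-cKO, and the share of all counted reads was 0.679%, 0.692%, 0.672% and 0.657%.

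**Figure D1:**
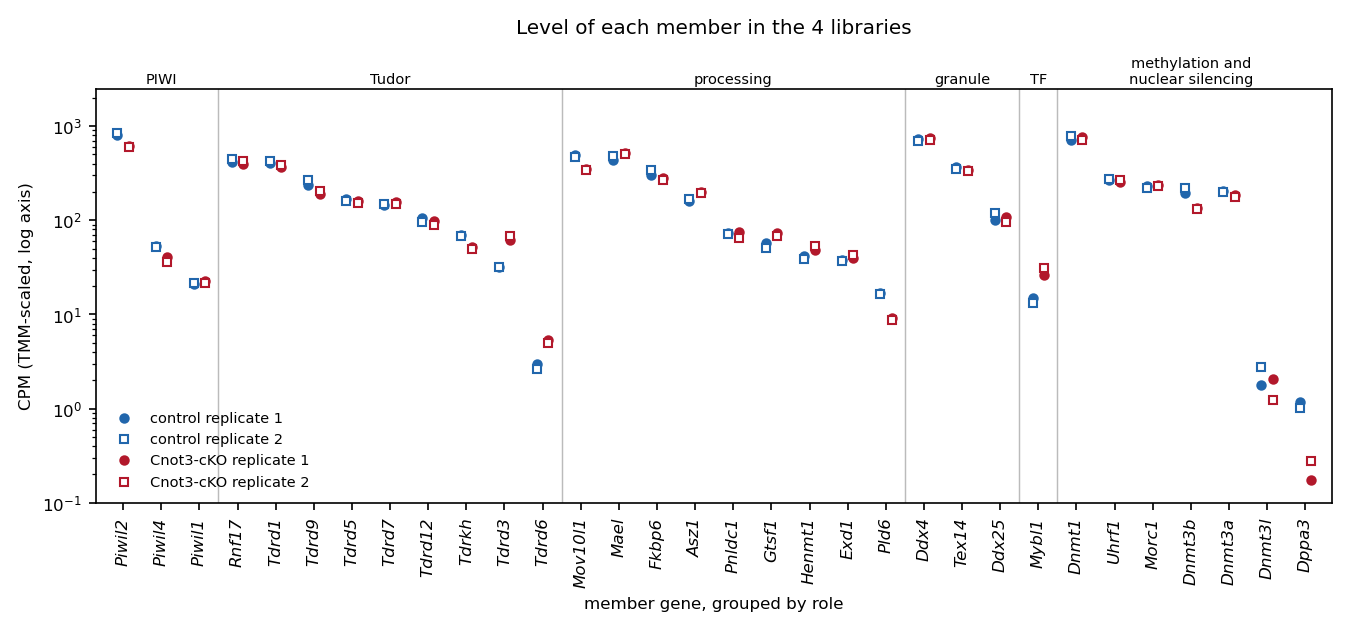
Level of each of the 32 genes in CPM (log axis) in the 4 libraries, grouped by role; circles and squares are replicates 1 and 2, blue control and red *Cnot3*-cKO. *Dppa3*, *Dnmt3l* and *Tdrd6* lie at or under 5.38 CPM in every library, while *Piwil2* and *Ddx4* lie above 600 CPM. The blue and red points of *Piwil2*, *Mov10l1*, *Tdrd3*, *Pld6*, *Mybl1*, *Dnmt3b* and *Tdrkh* are among those that do not overlap. Both red points lie above both blue in 10 genes (30.5% of all tested genes) and below in 12 (28.6%).

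Per length, the genes ran from 0.398 RPKM (*Tdrd6*) to 266 RPKM (*Mael*) in the control mean. After *Mael* came *Ddx4* at 237 RPKM, *Fkbp6* at 183 RPKM, *Piwil2* at 157 RPKM, *Mov10l1* at 115 RPKM and *Dnmt1* at 102 RPKM. The lowest after *Tdrd6* were *Dnmt3l* at 0.764 RPKM, *Dppa3* at 1.23 RPKM, *Mybl1* at 2.603 RPKM and *Piwil1* at 4.89 RPKM. In *Cnot3*-cKO *Mael* (296 RPKM) and *Ddx4* (245 RPKM) were still the highest, and *Dppa3* at 0.256 RPKM was the lowest.

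The PIWI genes encode the piRNA-bound slicers. *Piwil2* (MILI, chromosome 14, 70372477 to 70429383, minus strand, GRCm38) is the cytoplasmic member that is active in spermatogonia. It was measured at 815, 840, 620 and 602 CPM, so both *Cnot3*-cKO libraries were lower than both controls and the replicates of each group were close. The log2 change was -0.44 (SE 0.07, 95% interval -0.60 to -0.28, adjusted p = 0.00128), which left 73.8% of the control level. *Piwil2* alone made up 11.8% of the reads of the 32 genes in each control and 9.41% and 9.37% in *Cnot3*-cKO. *Piwil4* (MIWI2), the nuclear member that guides fetal DNA methylation, was at 53.3, 51.6, 40.8 and 36.3 CPM. Its change was of the same size as that of *Piwil2* (-0.45, SE 0.11, 95% interval -0.69 to -0.20) on fewer reads, and it missed the threshold (adjusted p = 0.015). *Piwil1* (MIWI), the member of pachytene and later cells, gave 21.3, 21.3, 22.7 and 21.8 CPM (log2 change 0.06, 95% interval -0.24 to 0.36, adjusted p = 0.819). Its 4 values were close together, and the interval holds small changes in either direction.

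Tudor domain proteins bind methylated arginines on PIWI proteins and build the granules. Of the 9, 1 rose, 1 fell and 7 were not called. *Tdrd3* (chromosome 14, 87416639 to 87545504, plus strand) encodes a reader of methylated arginines that works with the topoisomerase TOP3B and is expressed widely outside the germ line. It was at 31.7, 31.7, 61.9 and 68.7 CPM, the largest rise among the 32, with a log2 change of 1.04 (SE 0.11, 95% interval 0.80 to 1.29, adjusted p = 6.58e-05). Both *Cnot3*-cKO libraries stood well above the controls, which were equal to the first decimal. *Tdrkh*, a mitochondrial tether of PIWI proteins needed for trimming, was at 69.6, 68.1, 52.7 and 49.1 CPM and fell by 0.44 (SE 0.10, adjusted p = 0.00995). The adjusted p is just inside the threshold, and 36.7% of its exon length overlaps the opposite-strand gene *Oaz3*, named for this overlap only, which had at most 1.59 CPM in any library. *Tdrd9*, a helicase of the nuclear *Piwil4* branch, had 235, 268, 192 and 204 CPM, with both *Cnot3*-cKO values under both controls, and its change of -0.35 (SE 0.09, 95% interval -0.54 to -0.15, adjusted p = 0.0163) was not called. *Tdrd6*, a chromatoid body scaffold of spermatids, was near the bottom of the scale at 3.004, 2.61, 5.38 and 5.03 CPM (log2 change 0.89, SE 0.26, adjusted p = 0.0282). Its groups did not overlap, and its interval of 0.33 to 1.45 was wide. The other 5, *Tdrd1* (404, 422, 364 and 384 CPM), *Tdrd5*, *Tdrd7*, *Tdrd12* and *Rnf17* (413, 450, 395 and 425 CPM), had log2 changes from -0.14 to 0.05, and the groups of all but *Tdrd1* overlapped.

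Of the 9 processing genes 2 fell, 0 rose and 7 were not called. At an unadjusted p under 0.05, 3 were higher, against 4164 of all 23952 tested genes. DESeq2 called 0 of the 9 higher, against 1726 of all tested genes. *Pld6* (chromosome 11, 59783897 to 59787645, minus strand) encodes the mitochondrial nuclease that cuts piRNA precursors. It was at 16.7, 16.4, 9.18 and 8.76 CPM, and its log2 change of -0.88 (SE 0.17, 95% interval -1.25 to -0.51, adjusted p = 0.00329) was the largest fall among the called genes, to 54.2% of control. *Mov10l1* (chromosome 15, 88982909 to 89055152, plus strand), the helicase that feeds precursors to that nuclease, was far more abundant at 498, 465, 347 and 338 CPM and fell by 0.49 (SE 0.08, 95% interval -0.66 to -0.32, adjusted p = 0.000942). All replicates of both genes kept to their side, with no overlap between the groups. *Gtsf1*, a zinc finger partner of PIWI slicing, had 57.6, 50.7, 72.6 and 68.9 CPM (log2 change 0.38, SE 0.11, adjusted p = 0.0235). *Asz1*, a mitochondrial granule protein, had 158, 167, 199 and 195 CPM (0.28, SE 0.08, adjusted p = 0.0313). *Henmt1*, which methylates the piRNA end, had 41.9, 38.8, 48.4 and 53.7 CPM (0.34, SE 0.11, adjusted p = 0.053). All 3 were higher in each *Cnot3*-cKO library than in either control and did not pass the test. *Mael*, a granule protein of the primary pathway, had 438, 484, 523 and 502 CPM (0.15, adjusted p = 0.212). *Fkbp6*, a chaperone partner, had 301, 342, 281 and 268 CPM (-0.23, adjusted p = 0.0831). The trimmer *Pnldc1* (-0.05) and *Exd1* (0.13), an RNA-binding partner of *Tdrd12*, were the remaining members, with adjusted p = 0.807 and 0.477.

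The promoters of the called genes are shown so that the start regions of the genes that fell can be set beside one that rose. RefSeq (GRCm38.p6) gave a window, from 250 bases before to 50 after the start, for 25 of the 32 genes, and none for *Piwil2*, *Mybl1*, *Rnf17*, *Tdrd6*, *Morc1*, *Pnldc1* and *Dppa3*. For a gene with several windows, the one nearest its GENCODE start was used. The window of *Piwil1* lies 33722 bases from that start and that of *Dnmt3a* 973 bases. Which start these cells use was not tested. Capitals mark CACGTG (an E-box, the same on both strands), TCCCGC (the core of an E2F site) and AACTG (the core of a MYB site), searched on both strands. The windows lie at chr11:59787608-59787907 (minus strand, *Pld6*), chr15:88982744-88983043 (plus, *Mov10l1*), chr3:94412994-94413293 (plus, *Tdrkh*), chr2:153649199-153649498 (plus, *Dnmt3b*) and chr14:87416333-87416632 (plus, *Tdrd3*).
Pld6: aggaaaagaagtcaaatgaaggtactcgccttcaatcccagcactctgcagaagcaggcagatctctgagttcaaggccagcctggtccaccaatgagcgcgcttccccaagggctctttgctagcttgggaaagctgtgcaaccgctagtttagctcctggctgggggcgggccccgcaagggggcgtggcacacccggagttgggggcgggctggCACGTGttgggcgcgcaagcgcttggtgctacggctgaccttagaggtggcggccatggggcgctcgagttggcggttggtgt
Mov10l1: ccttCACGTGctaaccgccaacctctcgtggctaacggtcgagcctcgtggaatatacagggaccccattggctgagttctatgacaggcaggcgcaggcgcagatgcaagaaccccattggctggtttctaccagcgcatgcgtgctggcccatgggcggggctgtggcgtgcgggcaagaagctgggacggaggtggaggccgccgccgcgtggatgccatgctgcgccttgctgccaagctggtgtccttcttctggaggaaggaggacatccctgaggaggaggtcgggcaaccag
Tdrkh: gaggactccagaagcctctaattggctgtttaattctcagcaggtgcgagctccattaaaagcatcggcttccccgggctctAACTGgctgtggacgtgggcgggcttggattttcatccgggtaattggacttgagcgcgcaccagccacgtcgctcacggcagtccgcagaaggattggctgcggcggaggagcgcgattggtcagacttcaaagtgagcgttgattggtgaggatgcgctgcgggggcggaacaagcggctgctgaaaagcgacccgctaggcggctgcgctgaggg
Dnmt3b: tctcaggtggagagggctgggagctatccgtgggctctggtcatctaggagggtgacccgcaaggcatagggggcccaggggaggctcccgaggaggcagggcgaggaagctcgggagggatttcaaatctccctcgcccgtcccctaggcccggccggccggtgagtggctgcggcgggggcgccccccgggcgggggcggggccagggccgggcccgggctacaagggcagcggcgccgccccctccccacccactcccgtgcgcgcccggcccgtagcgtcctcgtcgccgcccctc
Tdrd3: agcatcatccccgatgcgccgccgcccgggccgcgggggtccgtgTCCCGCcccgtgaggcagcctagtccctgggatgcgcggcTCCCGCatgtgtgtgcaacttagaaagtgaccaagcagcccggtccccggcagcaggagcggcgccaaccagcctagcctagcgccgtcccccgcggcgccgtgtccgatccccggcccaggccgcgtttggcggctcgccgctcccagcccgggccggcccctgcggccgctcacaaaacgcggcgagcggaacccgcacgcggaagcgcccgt

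*Pld6* and *Mov10l1* each hold 1 E-box, near the start site in *Pld6* and at the far end of the window in *Mov10l1*. *Tdrkh* holds 1 MYB core, *Tdrd3* holds 2 E2F cores, and *Dnmt3b* holds none of the 3 motifs. The 25 windows had a median of 20 CpG dinucleotides (range 2 in *Dnmt1* to 48 in *Tdrd5*), against 7 over all 32851 windows, and 22 were above that median. *Dnmt1* has 3 windows, and its value is for the 1 used. The E-box was in 9 of the 25 (36%), in *Piwil1*, *Tdrd1*, *Tdrd9*, *Mael*, *Mov10l1*, *Ddx4*, *Ddx25*, *Pld6* and *Fkbp6*. It was in 7.15% of all windows and in 10.6% of those above the median CpG count. Of those 9 genes 2 fell and 7 were not called, so the motif was found in called and uncalled genes. The E2F core was in 36% of the 25, against 20% of all windows and 37.4% of those above the median CpG count, and the MYB core was in 36% against 44.8% and 35.7%.

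**Figure D2:**
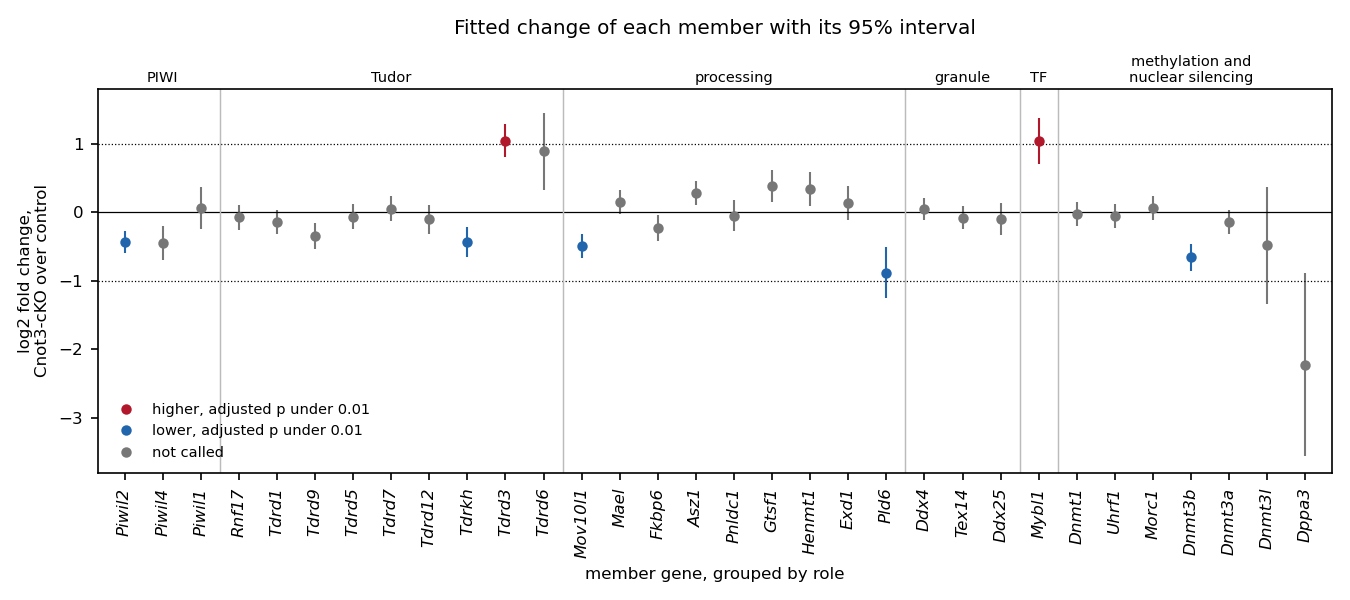
Fitted log2 fold change (*Cnot3*-cKO over control) of each gene by role, with its 95% interval as a bar; dotted lines mark a fold of 2 in either direction, and red and blue mark genes called higher and lower at an adjusted p under 0.01. *Tdrd3* (1.04) and *Mybl1* (1.03) are the 2 red points, 5 points are blue, and the interval of *Dppa3* runs from -3.56 to -0.89.

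The granule and bridge genes were not called: 0 of 3 rose or fell, none had an unadjusted p under 0.05 and DESeq2 called 0. Of all 23952 tested genes, 4164 were higher and 3695 lower at that unadjusted p. *Ddx4*, the helicase of the germ granule and the gene whose promoter drives CreER, was at 726, 703, 754 and 720 CPM, a log2 change of 0.05 (95% interval -0.11 to 0.20, adjusted p = 0.733). Its groups overlapped, and its level per length was close to that of *Mael* at the top of the list. *Tex14*, which keeps intercellular bridges open, was at 367, 352, 344 and 337 CPM (-0.08, adjusted p = 0.537). *Ddx25*, a helicase of meiotic and later cells, was at 101, 120, 109 and 96.7 CPM (-0.11, adjusted p = 0.553). The *Ddx25* groups overlapped (95% interval -0.34 to 0.13), and both *Cnot3*-cKO values of *Tex14* lay just under the controls.

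*Mybl1* (A-MYB, chromosome 1, 9667415 to 9700209, minus strand) drives transcription of pachytene piRNA precursors and of meiotic genes. It was among the least abundant of the 32, at 15.02, 13.1, 26.4 and 31.0 CPM. Its log2 change was 1.03 (SE 0.15, 95% interval 0.70 to 1.37, adjusted p = 0.000641), to 204% of the control level, and the groups did not overlap. Of the 13 spermatocyte markers tested in the same libraries, *Meiob* (1.47, adjusted p = 0.00243) and *Hormad1* (0.71, adjusted p = 0.00198) rose and *Meioc* fell by 1.26 (adjusted p = 0.000692), and the median was 0.02. *Sycp1*, the most abundant of them, was at 496, 530, 571 and 593 CPM (0.18, adjusted p = 0.117).

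Of the 7 genes of DNA methylation and nuclear silencing, 1 fell, 0 rose (0 at an unadjusted p under 0.05, and 0 by DESeq2) and 6 were not called. Of all 23952 tested genes, 4164 were higher at that unadjusted p and DESeq2 called 1726 higher. *Dnmt3b* (chromosome 2, 153649450 to 153687730, plus strand), a de novo DNA methyltransferase, was at 196, 222, 134 and 131 CPM. Both *Cnot3*-cKO libraries were well below the controls, with a log2 change of -0.66 (SE 0.09, 95% interval -0.85 to -0.46, adjusted p = 0.000362) and 63.5% of the control level. Its near paralog *Dnmt3c*, named here because reads may be shared between the 2 genes, had 3.82, 4.52, 3.22 and 1.82 CPM (-0.74, adjusted p = 0.125). *Dnmt3a*, the other de novo enzyme, was at 203, 201, 188 and 178 CPM (-0.14, adjusted p = 0.263). *Dnmt3l*, their catalytically inactive cofactor, was at 1.79, 2.78, 2.07 and 1.22 CPM, with overlapping groups and an interval of -1.33 to 0.37. The maintenance enzyme *Dnmt1* (710, 793, 768 and 710 CPM) and *Uhrf1* (266, 276, 255 and 267 CPM), which brings it to replicated DNA, changed by -0.02 and -0.06, and the groups of both overlapped. *Morc1*, an ATPase needed for retrotransposon silencing in the male germ line, was at 232, 221, 239 and 233 CPM (0.06, adjusted p = 0.671). *Dppa3*, which shields DNA from demethylation in early embryos, was counted with 47 and 43 reads in the controls and 4 and 8 in *Cnot3*-cKO. Its log2 change of -2.22 (SE 0.62, adjusted p = 0.0227) was the largest in size but was not called. Reads may be shared with a *Dppa3* pseudogene in the files (7 and 12 reads against 0 and 0), which leaves its count uncertain. Such sharing was not tested.

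**Figure D3:**
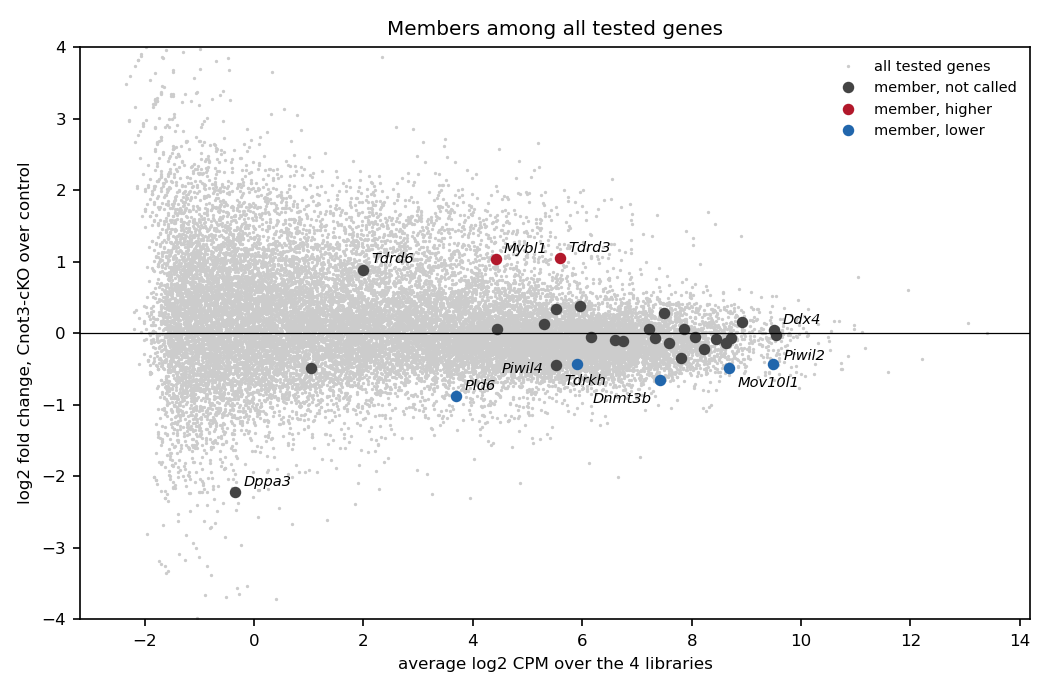
Log2 fold change against average log2 CPM over the 4 libraries for all tested genes (grey), with the 32 genes in dark grey, red (higher) and blue (lower); 36 tested genes lie beyond the axis limit of 4 in either direction. The 32 genes sit mostly in the narrow right-hand part, where the spread between genes is small, and *Dppa3* sits to the left, at few reads.

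Other genes of piRNA biology and of retrotransposon control moved in both directions. Of 17 tested genes of the piRNA pathway outside the 32, 3 rose, 3 fell and 11 were not called (17.6% in each direction, against 6.21% and 4.7% of all tested genes), with a median of -0.19 and none past a fold of 2. *Tex19.1*, a retrotransposon repressor (0.41, adjusted p = 0.00598), the arginine methyltransferase *Prmt5* (0.39, adjusted p = 0.00884) and the Tudor gene *Stk31* (0.33, adjusted p = 0.0087) rose. *Mov10*, the ubiquitous paralog of *Mov10l1*, fell by 0.66 (adjusted p = 0.000252), and the transcription factor *Tcfl5* fell by 0.44 (adjusted p = 0.00948). *Tex15*, the nuclear partner of *Piwil4* in fetal methylation, was more abundant than any of the 32 in CPM (1408, 1462, 892 and 1040) and fell by 0.57 (adjusted p = 0.000541). Among 41 tested genes of chromatin and DNA methylation, 3 rose (7.32%), 10 fell (24.4%) and 28 were not called, with a median of -0.06. The TET enzymes, which oxidise 5-methylcytosine, moved both ways. *Tet3* fell by 0.86 (adjusted p = 0.000108), from 177 and 150 to 87.8 and 91.7 CPM, while *Tet2* (1.04, adjusted p = 0.00197) and *Tet1* (0.86, adjusted p = 0.00803) rose from lower levels. *Mphosph8*, a subunit of the HUSH complex, rose by 0.40 (adjusted p = 0.00532), while *Morc4* fell by 1.10 (adjusted p = 0.00673) and the H3K9 methyltransferase *Suv39h2* by 0.72 (adjusted p = 0.000527). Of 13 tested genes that restrict retroelements, 3 rose (23.1%) and 2 fell (15.4%), with a median of 0.20. *Zc3hav1*, an antiviral RNA-binding protein, rose by 0.93 (adjusted p = 0.000232), while the RNA editor *Adar* fell by 0.40 (adjusted p = 0.00934). *Tex19.1* and *Mov10* are also on this last list. With libraries scaled to germ cell reference genes, most of the falls in these 3 lists were not called. In the first list 5 genes rose and 0 fell, in the second 7 rose and 1 fell, and in the third 5 rose and 0 fell. Of all tested genes, 3226 rose and 177 fell with that scaling.

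**Figure D4:**
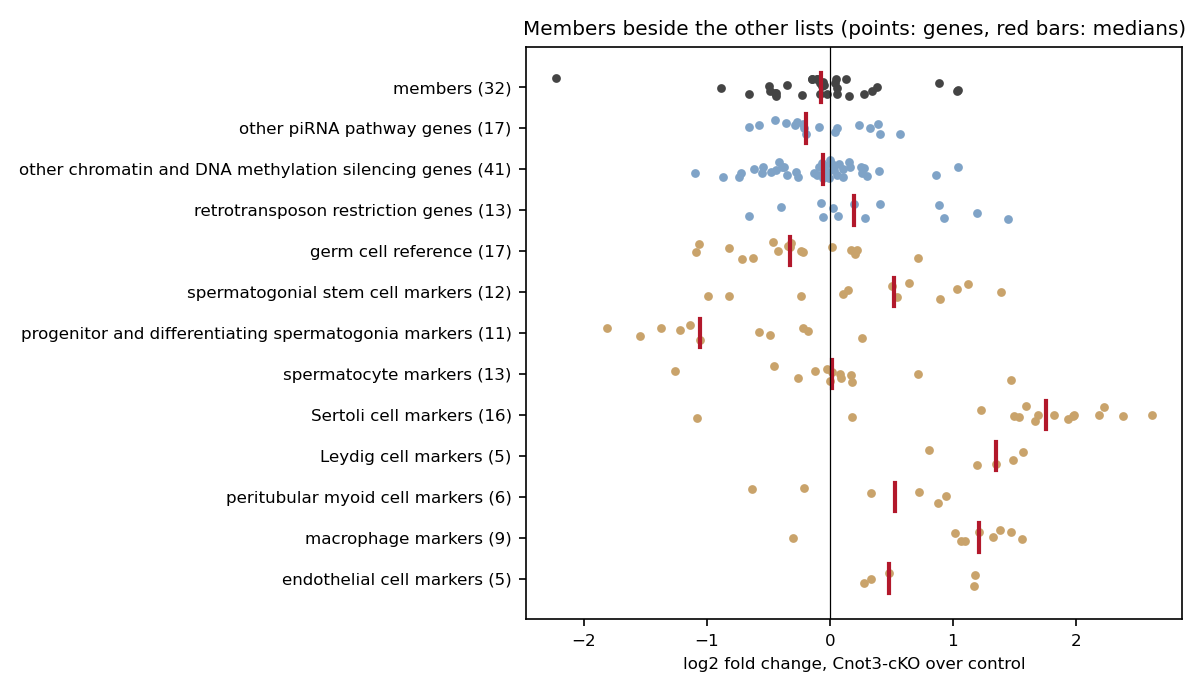
Log2 fold change of every tested gene (points) of the 32 genes, the 3 other silencing lists (blue) and the marker lists (brown), with list sizes in brackets and medians as red bars. The 32 genes are centred near 0 (median -0.07), while Sertoli, Leydig and macrophage markers are centred at 1.76, 1.35 and 1.21.

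The calls of the 5 lower genes depended on whether germ cell genes set the scaling. With DESeq2 size factors in edgeR all 7 called genes stayed called. Upper quartile scaling, and library size only, each ended the call of *Tdrkh* alone. The germ cell reference genes themselves had a median log2 change of -0.32 in the reported fit. When libraries were scaled to 17 germ cell genes in place of all genes, the median of all tested genes moved from 0.01 to 0.31, and the 5 genes were no longer called, with log2 changes from -0.58 (*Pld6*, adjusted p = 0.0466) to -0.13 (*Piwil2*, adjusted p = 0.61, and *Tdrkh*, adjusted p = 0.59), with *Dnmt3b* at -0.34 and *Mov10l1* at -0.19. All 5 stayed below the shifted median, but rescaling moves all genes by nearly the same amount, so their place against it could hardly change. *Tdrd3* (1.35) and *Mybl1* (1.33) were called as before, and *Gtsf1*, *Asz1*, *Henmt1* and *Tdrd6* were called higher. Over all tested genes this scaling gave 3226 higher and 177 lower, against 1488 and 1125 in the reported fit. Leaving out *Cnot3*-cKO library 2 ended the calls of *Piwil2*, *Pld6* and *Tdrkh*, and leaving out *Cnot3*-cKO library 1 ended that of *Tdrkh*. Over the fits that each left out 1 library, *Piwil4* changed by -0.54 to -0.37, *Tdrd9* by -0.45 to -0.26 and *Fkbp6* by -0.33 to -0.15.

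**Figure D5:**
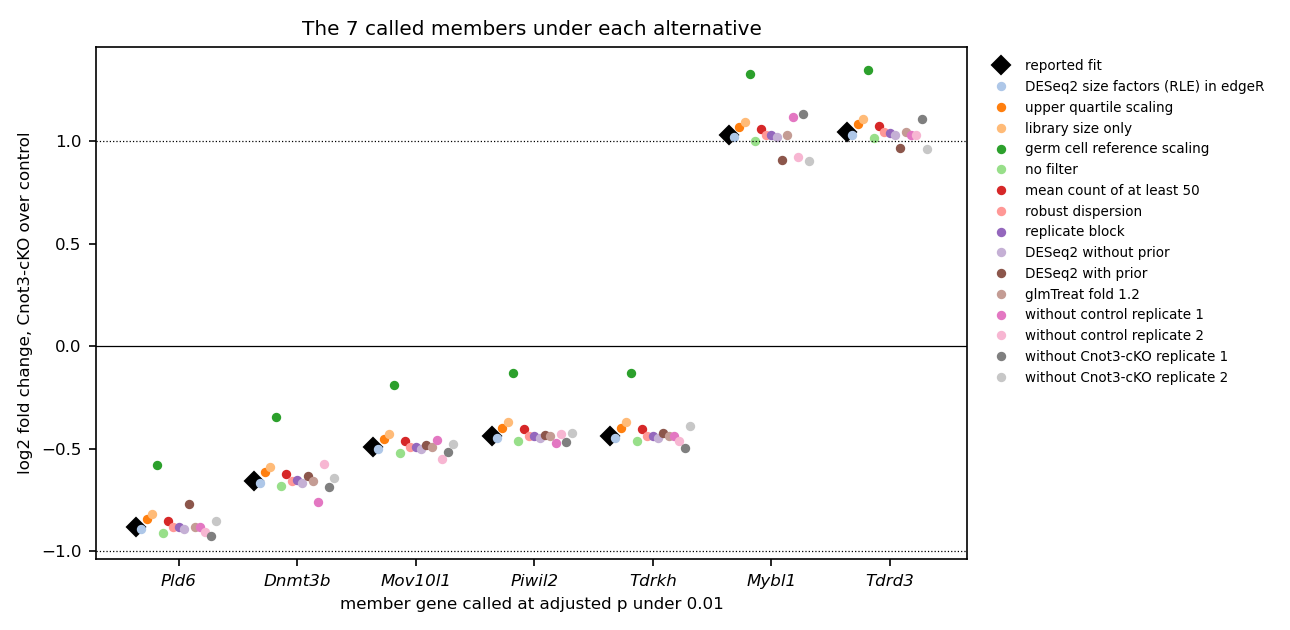
Log2 fold change of the 7 called genes in the reported fit (black diamonds) and under 15 alternatives (coloured points); dotted lines mark a fold of 2. The direction of each gene is the same in every alternative, and the point nearest 0 for each of the 5 lower genes is scaling to the germ cell reference genes.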

How the data were processed

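ID4-EGFP+ spermatogonia were sorted from P8 testes, and total RNA went into stranded TruSeq libraries. The authors filtered reads on quality before STAR alignment (mm10), and gene counts came from featureCounts with a GENCODE annotation. The deposited values are raw counts, 1 list per library, not normalized. Whether counting used strand, and how reads matching several genes were treated, is not given in the sources used here. Library totals ran from 22192964 to 43378493 counts. No member had fewer than 4 counts in a library, and intervals cover the fitted spread of 2 libraries a group.

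The 2 *Cnot3*-cKO libraries were compared with the 2 controls without covariates, in edgeR 4.0.16 (R 4.3.3) with TMM scaling, filterByExpr and the quasi-likelihood F test, fitted on all 23952 genes that passed the filter, with Benjamini-Hochberg adjustment over them. An exact permutation test of 2 against 2 libraries cannot go below p = 0.333. The 19 lists and 32 members were chosen with earlier results of these data known. Of the other lists, up to 3 genes with the largest and 3 with the smallest log2 change among those called were named, and of marker lists the most abundant. *Sox9*, *Amh*, *Insl3*, *Gjb2*, *Meiob*, *Hormad1*, *Meioc*, *Oaz3* and *Dnmt3c* were added after their values were seen. The values of 1 gene that this rule names are not reported here. CPM used TMM-scaled library sizes, RPKM the merged exon length of GENCODE M21 on GRCm38 (mm10). Promoter windows came from RefSeq (GRCm38.p6). Counts of the 2 controls, and of the 2 *Cnot3*-cKO libraries, differed by more than sampling noise (chi-square per gene 23.0 and 7.26), so each was counted once. The code was tested on simulated data. Alternatives used DESeq2 1.42.0, other scalings, filters, thresholds and dispersions, and left out each library in turn.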

Additional observations from a re-analysis of the deposited data

How the results depend on the processing

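Every alternative kept the direction of *Cnot3* and of the 7 called genes, and *Tdrd3*, *Mybl1* and *Cnot3* were called in all 15 alternatives run. The groups did not overlap in any of these genes, so leaving out 1 library could hardly turn a direction. *Dnmt3b* was called in 14, *Mov10l1* in 13, *Piwil2* and *Pld6* in 12 and *Tdrkh* in 9 of 15. Scaling to the germ cell reference genes gave 6 higher and 0 lower members and turned the members' median to 0.24. Over all tested genes it gave 3226 higher and 177 lower, against 1488 and 1125 in the reported fit. In the other lists it gave 5 higher and 0 lower piRNA pathway genes, 7 higher and 1 lower chromatin genes and 5 higher and 0 lower restriction genes, and it turned the log2 change of *Tdrd1* (0.16), *Tdrd5* (0.24), *Tdrd12* (0.20), *Ddx25* (0.21), *Rnf17* (0.23), *Fkbp6* (0.084), *Pnldc1* (0.26), *Dnmt1* (0.29), *Dnmt3a* (0.17), *Uhrf1* (0.25) and *Tex14* (0.23). With library size only, the members' median was -0.0042, *Tdrd5* (0.0015), *Pnldc1* (0.016), *Dnmt1* (0.042) and *Uhrf1* (0.0091) turned and 1 restriction gene fell. Upper quartile scaling gave 6 lower chromatin genes and 1 lower restriction gene and turned *Dnmt1* (0.016), and DESeq2 size factors in edgeR gave 1 higher piRNA pathway gene. Without the filter 8 members fell, 1 of them at the study's thresholds, and at a mean count of at least 50 *Dppa3* was not tested and *Dnmt1* turned (0.0076). An adjusted p under 0.05 gave 5 higher and 8 lower members (1 lower at the study's thresholds), 6 higher chromatin genes and 5 higher restriction genes. Testing against a fold of 1.2 (glmTreat) left 1 lower member, 0 higher piRNA pathway genes, 1 higher and 2 lower chromatin genes and 1 lower restriction gene. Over all genes, 2020 rose and 2006 fell without the filter, and 2659 and 2266 at an adjusted p under 0.05. With glmTreat 941 rose and 382 fell. DESeq2 with a fold change prior called 0 members at the study's thresholds. The cause was not tested.

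Leaving out each library gave a *Cnot3* change of -1.59 to -1.37, 2 to 3 higher and 2 to 8 lower members, 0 to 2 higher and 0 lower at the study's thresholds, and a median of -0.11 to -0.03. In the other lists it gave 0 to 5 higher and 2 to 3 lower piRNA pathway genes, 1 to 4 higher and 5 to 13 lower chromatin genes, and 2 to 5 higher and 1 to 2 lower restriction genes. The log2 change turned for *Ddx25* (range -0.24 to 0.010) and *Dnmt1* (-0.12 to 0.046) without control 2, and for *Tdrd7* (-0.0026 to 0.092) without *Cnot3*-cKO 1. It also turned for *Pnldc1* (-0.17 to 0.055) and *Dnmt1* without *Cnot3*-cKO 2. Here the lone library of a group is assumed to vary like the other group. The labels number the libraries 1 and 2 in each group. Same-numbered libraries deviated together only weakly (correlation 0.0642 over 16437 genes). With 1 difference between libraries in each group, this value cannot show whether same-numbered libraries were paired. With a replicate block 3 members rose and 7 fell, with a *Cnot3* change of -1.47. Of all tested genes, 1968 rose and 1637 fell with that block. At about 1 CPM or less (*Dppa3*) depth limits what can be shown.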
